A study of Mus musculus with 18 samples.

Results

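Embryoid bodies (EBs) that lacked the 3 DNA methyltransferases Dnmt1, Dnmt3a and Dnmt3b were compared with wild type (wt) EBs after 16 days of differentiation. The comparison rests on 4 of the 18 arrays of the series, 2 of triple knockout (TKO) EBs and 2 of wt EBs, which were taken by their labelled genotype and day, and on all 35512 probe sets of the array. TKO cells were dnmt1-/-, dnmt3a-/- and dnmt3b-/-, and wt cells carried none of these deletions. Both were J1 embryonic stem cell (ESC) lines of the 129Sv/Jae strain, grown into EBs by the hanging drop method and lysed whole, and no compound is named for either. The sources name no second line of a genotype, so genotype and line cannot be told apart. For comparison, 3 other sets of arrays of the same strain were used: TKO and wt ESCs at day 0, TKO and wt EBs at day 4, and Dnmt1-/- EBs at day 16, with 2 arrays in each group. The study asked how far cells without DNA methylation can go through differentiation.

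Expression was measured in total RNA on a one-colour oligonucleotide array, and values are log2 signals. The number of arrays limits the precision. With 2 arrays in a group, p-values rest on the spread between labelled biological replicates, pooled over the 9 groups of the series. They do not measure a spread between lines of a genotype. The replicates of TKO EBs correlated at r = 0.981 over all probe sets and those of wt EBs at r = 0.982, with a median absolute difference between replicates of 0.266 in TKO EBs and 0.249 in wt EBs (log2). Array medians over the series lay between 5.77 and 5.90. A gene or probe set was called when it differed at least 2-fold with a false discovery rate under 0.05 in limma, and below "higher" and "lower" of a gene refer to TKO EBs relative to wt EBs and to such calls, unless values alone are given. In bulk EBs, fewer cells of a type and less RNA per cell cannot be told apart.

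The targeted genes gave a partial check of the labels, since the sources do not say whether the probe sets lie in the deleted parts. In ESCs all 3 were lower in TKO than in wt cells, by 1.27 for Dnmt1, 1.62 for Dnmt3a and 2.51 for Dnmt3b (log2, limma adjusted p = 0.00346, 0.00676 and 0.000376). At day 16, Dnmt3a had log2 signals of 6.45 and 6.67 in TKO EBs, against 8.53 and 8.95 in wt EBs (log2 fold change -2.18 ± 0.22 SE, limma adjusted p = 3.47e-05). Dnmt1 had 8.40 and 8.43 in TKO EBs, against 9.16 and 9.20 in wt EBs, a difference of -0.76 that was under 2-fold (limma adjusted p = 0.0072). Dnmt3b was not called at day 16, with 7.52 and 7.71 in TKO EBs, against 7.16 and 7.41 in wt EBs (limma adjusted p = 0.482).

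DNA methylation is the addition of a methyl group to cytosine, mostly where a guanine follows (CpG). Dnmt3a and Dnmt3b set the mark and Dnmt1 copies it after replication. In the mouse it is known to hold germ line genes, the inactive X chromosome and one allele of imprinted genes silent, and the promoters of several pluripotency genes gain it during differentiation. EBs are aggregates in which ESCs differentiate without direction into derivatives of the 3 germ layers and of extraembryonic endoderm.

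Promoters of 3 germ line genes that were higher in TKO EBs and of 2 plasma protein genes that were lower are shown because they differ in their content of CpG. Each window runs from 250 bases before to 50 bases after the annotated start of transcription, as given by RefSeq on the mouse build GRCm38.p6, and every CpG is in capitals. Dazl codes for an RNA-binding factor of germ cells and its window is at chr17:50293571-50293870 on the minus strand, Mael encodes a factor of the piRNA pathway (chr1:166238695-166238994, minus strand), and Sycp3 a component of the synaptonemal complex (chr10:88459337-88459636, plus strand). Alb encodes albumin (chr5:90460620-90460919, plus strand) and Ahsg fetuin-A (chr16:22891765-22892064, plus strand).
Dazl: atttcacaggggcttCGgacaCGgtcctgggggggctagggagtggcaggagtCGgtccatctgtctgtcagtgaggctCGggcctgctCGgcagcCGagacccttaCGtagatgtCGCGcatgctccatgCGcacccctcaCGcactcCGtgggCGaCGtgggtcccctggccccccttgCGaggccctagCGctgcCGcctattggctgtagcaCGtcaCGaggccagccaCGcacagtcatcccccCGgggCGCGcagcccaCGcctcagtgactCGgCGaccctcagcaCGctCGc
Mael: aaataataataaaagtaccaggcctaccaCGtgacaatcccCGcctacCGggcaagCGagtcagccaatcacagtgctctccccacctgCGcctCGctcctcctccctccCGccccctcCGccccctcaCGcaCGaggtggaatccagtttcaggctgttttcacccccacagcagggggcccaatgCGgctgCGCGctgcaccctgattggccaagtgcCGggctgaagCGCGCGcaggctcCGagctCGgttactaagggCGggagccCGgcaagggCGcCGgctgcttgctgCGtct
Sycp3: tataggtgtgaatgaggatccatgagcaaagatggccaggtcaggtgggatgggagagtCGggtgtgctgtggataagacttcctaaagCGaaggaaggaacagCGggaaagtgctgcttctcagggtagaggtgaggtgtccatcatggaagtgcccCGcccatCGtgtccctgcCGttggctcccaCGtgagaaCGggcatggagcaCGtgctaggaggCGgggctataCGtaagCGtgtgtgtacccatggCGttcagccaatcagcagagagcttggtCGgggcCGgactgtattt
Alb: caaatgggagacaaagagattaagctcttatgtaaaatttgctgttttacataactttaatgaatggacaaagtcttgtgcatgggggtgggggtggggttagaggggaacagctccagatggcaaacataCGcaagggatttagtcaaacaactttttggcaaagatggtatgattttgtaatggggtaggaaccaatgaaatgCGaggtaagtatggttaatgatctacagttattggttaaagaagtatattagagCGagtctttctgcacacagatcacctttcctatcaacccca
Ahsg: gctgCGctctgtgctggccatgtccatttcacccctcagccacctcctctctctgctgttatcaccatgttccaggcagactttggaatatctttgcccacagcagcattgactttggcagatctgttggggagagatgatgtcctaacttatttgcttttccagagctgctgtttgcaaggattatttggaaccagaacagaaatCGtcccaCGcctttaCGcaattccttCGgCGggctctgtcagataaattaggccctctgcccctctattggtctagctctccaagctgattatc

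The windows held 28 CpG in Dazl, 24 in Mael, 15 in Sycp3, 3 in Alb and 6 in Ahsg. Over the 12977 genes with a probe set of their own and one such window (of 19938) the median was 15. Among the genes that were higher in TKO EBs and had a window (352 of 537), the median was 17, and among those that were lower (605 of 1011) it was 11. The 22 germ line genes with a window among those called higher had a median of 17 CpG, with a range of 10 to 38. The 15 core pluripotency genes with a window among those called higher had a median of 14. The plasma protein, macrophage and coagulation genes called lower had medians of 3, 3.5 and 4. The motif CACGTG is an E-box that reads the same on both strands. It was found in 31.8% of the windows of the germ line genes called higher (7 of 22). The share was 12.2% for all genes called higher, 6.28% for all genes called lower and 8.27% for all measured genes. TCCCGC, an E2F-type motif searched on both strands, was found in 11 of the 22 germ line windows, in 34.1% of those of genes called higher, in 23.6% of those of genes called lower and in 27.3% of those of all measured genes. A match describes letters in a window, and the methylation of these promoters was not measured on the arrays.

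At day 16, 2072 of 35512 probe sets (5.83%) were called in limma, 854 (2.4%) higher and 1218 (3.43%) lower in TKO EBs. Some probe sets shared all their values, so the higher calls held 787 distinct sets of values and the lower calls 1216. Taken as 19938 genes with a probe set of their own, 1548 were called (7.76%), 537 higher (2.69%) and 1011 lower (5.07%). Of these calls, 328 higher and 643 lower genes held when each of the 4 arrays was left out in turn. The median absolute log2 fold change was 1.39 for the higher genes and 1.47 for the lower genes. More than 4-fold differences were seen for 117 higher and 263 lower genes, and more than 8-fold for 36 and 82. The genes that were higher had a median level of 7.79 in TKO EBs and 6.02 in wt EBs, and those that were lower 5.87 in TKO EBs and 7.67 in wt EBs (log2). As the background for the counts of arrays without overlap given for single lists, both TKO arrays lay above both wt arrays in 24.5% of all genes and below them in 25.4%. Counts at an unadjusted p under 0.05 (limma) have as their background 8564 of 35512 probe sets for TKO minus wt EBs at day 16, both directions together. This background is in probe sets, while the counts in lists are in genes. For day 0, day 4 and the comparison with Dnmt1-/- EBs no such background is given, so unadjusted counts there are descriptive only.

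**Figure D1:**
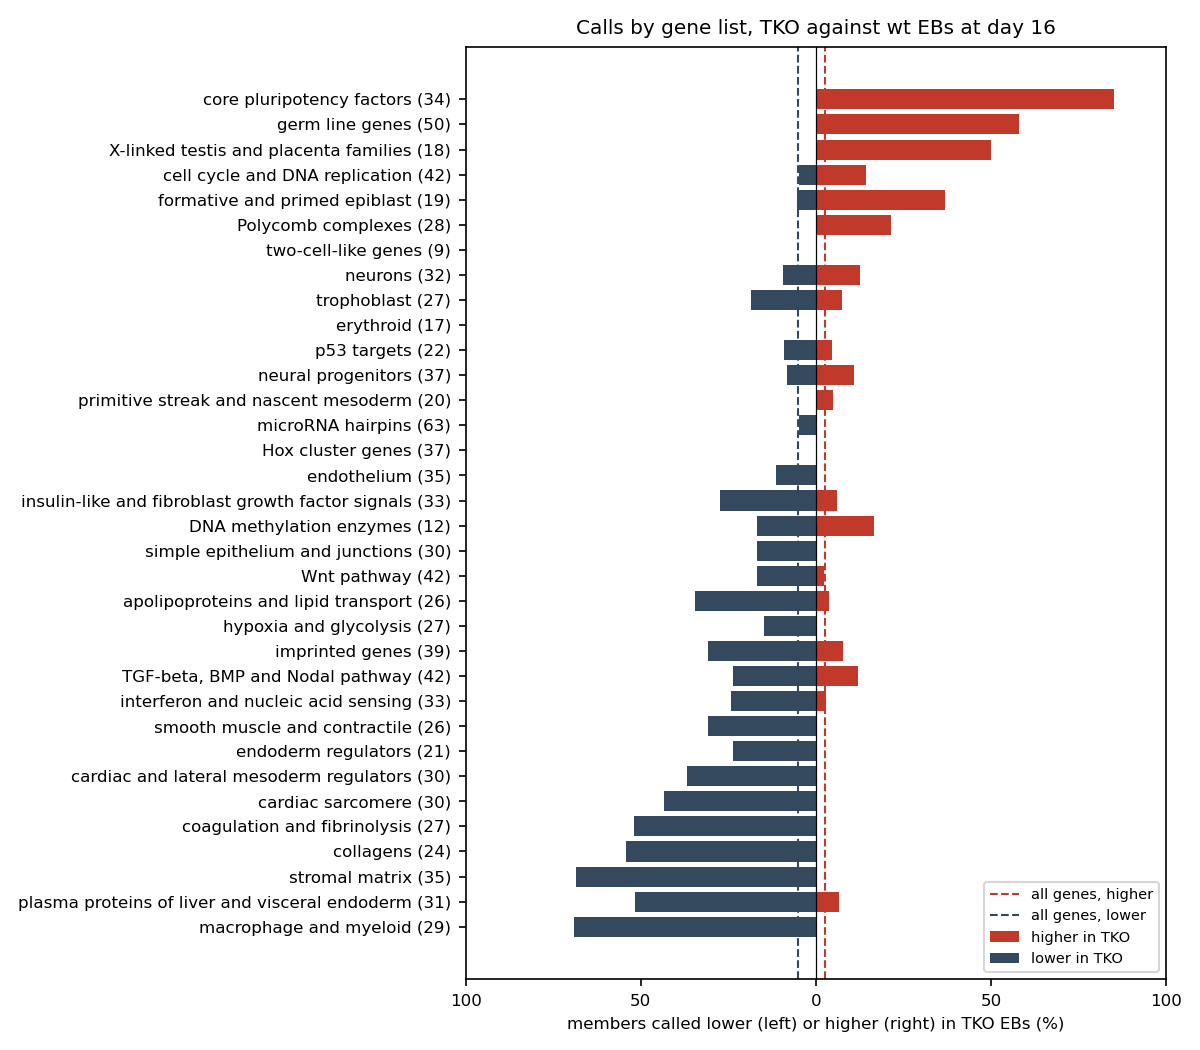
The percentage of measured genes called in each of 34 gene lists at day 16, with genes higher in TKO EBs to the right and genes lower in TKO EBs to the left of 0. Dashed lines mark the share over all genes, 2.69% higher and 5.07% lower, and germ line and pluripotency lists extend to the right while stromal, macrophage, plasma protein, coagulation and sarcomere lists extend to the left.

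The gene lists, which were drawn up with earlier results of these data known, fell on both sides of these shares. Higher in TKO EBs were 29 of 34 core pluripotency genes, 29 of 50 germ line genes and 9 of 18 X-linked testis and placenta genes. Lower were 24 of 35 stromal matrix genes, 20 of 29 macrophage and myeloid genes, 13 of 24 collagens, 14 of 27 coagulation genes, 16 of 31 plasma protein genes and 13 of 30 cardiac sarcomere genes. The median log2 fold change was 2.06 in the pluripotency list, 1.55 in the germ line list, -2.03 in the macrophage list and -1.52 in the stromal matrix list, and it was 0.03 over all genes. Of the called genes, 100 of those higher and 201 of those lower belonged to one of the 34 lists.

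The genes with the largest differences, taken from those whose call held without each of the 4 arrays, were led among the higher ones by Dnmt3l, the cofactor of the de novo methyltransferases, and Dazl. Dnmt3l had log2 signals of 10.23 and 10.29 in TKO EBs, against 6.12 and 5.46 in wt EBs. All 4 values stood far apart between the groups, a 22.2-fold difference (log2 fold change 4.47 ± 0.38 SE, limma adjusted p = 7.05e-06). Dazl had 9.86 and 9.41 in TKO EBs, against 5.32 and 5.02 in wt EBs, so that the lowest TKO array was still above the highest wt array by a wide margin (4.46 ± 0.31 SE, limma adjusted p = 1.64e-06). The other genes of this set that were higher by at least 3.40 included Usp26, a ubiquitin protease of testis (4.35), Xist, the noncoding RNA that coats an inactive X chromosome (3.82), Utf1 (3.75), Tdrd12, which acts in piRNA production (3.74), Triml2 (3.58), Zfp42 (3.54), Nr0b1 (3.54), Hsf2bp (3.44) and Gm1698 (3.40). Zfp640 (3.82) and, on chromosome 4, Zfp980 (3.81) and Zfp979 (3.52), which are all zinc finger genes, also belonged to it.

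**Figure D2:**
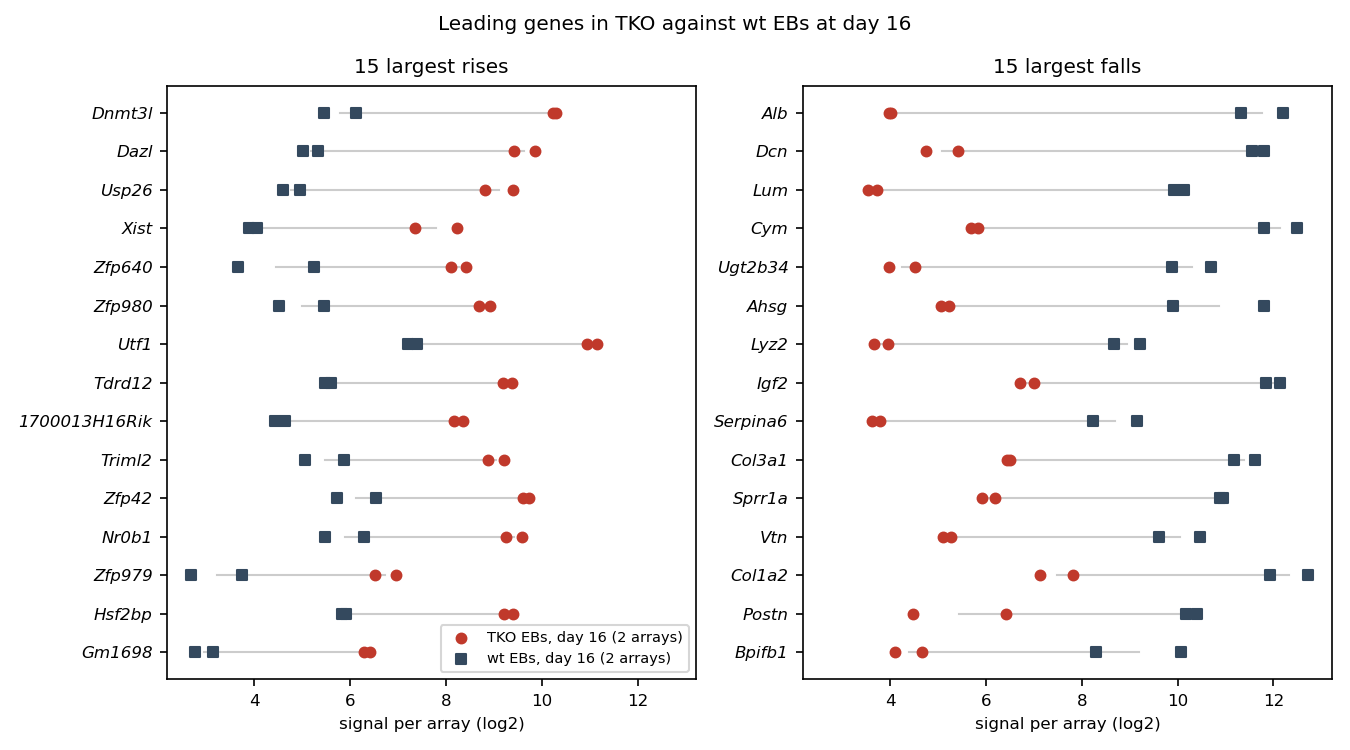
Log2 signals of the 15 genes with the largest rise and the 15 with the largest fall at day 16 whose calls held without each array, with one point for each array of TKO and of wt EBs. In each gene the points of the 2 TKO arrays and the 2 wt arrays do not overlap, and for Alb the TKO points are at 3.96 and 4.01 and the wt points at 11.33 and 12.19.

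Among the lower genes, Alb, the main plasma protein made by hepatocytes, showed the largest difference. Its signal was 3.96 and 4.01 in TKO EBs, against 11.33 and 12.19 in wt EBs, a 219-fold difference (log2 fold change -7.77 ± 0.35 SE, limma adjusted p = 9.98e-08). The TKO signal was near that of TKO ESCs (4.05 and 3.95). Detection above background was not analysed here, so this fold carries no bound. Next came Dcn (-6.60), which encodes the matrix proteoglycan decorin, Lum (-6.39), which encodes lumican, Cym (-6.38), which encodes the milk-clotting protease chymosin, Ugt2b34 (-6.05), a glucuronosyltransferase, and Ahsg (-5.71). Cym had 5.69 and 5.83 in TKO EBs, against 11.80 and 12.50 in wt EBs.

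The core pluripotency factors are the transcription factors and companions that maintain the ESC state, and 29 of the 34 measured were higher in TKO EBs while none was called lower (limma; at an unadjusted p under 0.05 there were 32 higher and 1 lower). Both TKO arrays lay above both wt arrays for 33 of the 34, and 27 of the 29 calls held when each array was left out. Pou5f1 (Oct4) had log2 signals of 10.52 and 10.55 in TKO EBs, against 7.44 and 6.84 in wt EBs, 10.5-fold higher (3.39 ± 0.41 SE, limma adjusted p = 0.000141). Nanog had 10.77 and 10.89 in TKO EBs, against 8.05 and 7.75 in wt EBs (2.92 ± 0.47 SE, limma adjusted p = 0.00113). In both genes the replicates of each genotype lay close together and far from those of the other.

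Utf1, a chromatin-associated factor of ESCs, had 10.94 and 11.14 in TKO EBs, against 7.39 and 7.20 in wt EBs (3.75 ± 0.31 SE, limma adjusted p = 5.15e-06). Zfp42 (Rex1), 9.62 and 9.73 in TKO EBs against 6.53 and 5.73 in wt EBs, Nr0b1 (Dax1), 9.25 and 9.60 against 6.29 and 5.47, and Esrrb, 9.08 and 8.85 against 5.94 and 5.47, followed the same pattern, as did Fbxo15 (log2 fold change 3.32). Sox2, which also acts in neural progenitors, was higher by 1.80 ± 0.33 SE (10.59 and 10.55 in TKO EBs, against 8.81 and 8.73 in wt EBs, limma adjusted p = 0.00261). All 5 ESC markers set for the marker check (Pou5f1, Nanog, Sox2, Zfp42 and Esrrb) were higher. Tet1, the enzyme that oxidises methylcytosine, was higher by 2.02 ± 0.23 SE (limma adjusted p = 9.17e-05), and Dnmt3l and Tet1 were the 2 genes called higher among 12 DNA methylation enzymes, of which 2 were lower.

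Genes of the formative and primed epiblast, the state that follows the naive ESC state, were higher for 7 of 19 and lower for 1, Dnmt3a. The higher ones included Lefty2, an inhibitor of Nodal signalling, with 8.99 and 8.80 in TKO EBs, against 5.91 and 5.34 in wt EBs (3.27 ± 0.62 SE, limma adjusted p = 0.00357). Nodal itself was higher by 2.16, Otx2 by 2.49, Etv5 by 2.51 and Fgf5 by 2.13. In each of the 5 genes both TKO arrays were above both wt arrays. The primitive streak and nascent mesoderm list had 1 gene called of 20, and Eomes was 6.90 and 6.28 in TKO EBs, against 5.63 and 5.56 in wt EBs, which did not pass the test (limma adjusted p = 0.336). T (Brachyury) and H19 were not analysed here because no probe set of one gene was assigned to them.

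Germ line genes were the other large group that was higher, with 29 of 50 called and none called lower (limma; 39 higher and none lower at an unadjusted p under 0.05). Both TKO arrays lay above both wt arrays for 40 of the 50, and no gene had both below. The known roles of those called cover meiotic chromosome structure, RNA binding and transposon control. Besides Dazl, Sohlh2, a transcription factor of early oogenesis and spermatogenesis, had 9.23 and 8.81 in TKO EBs, against 5.52 and 5.77 in wt EBs (3.38 ± 0.19 SE, limma adjusted p = 3.05e-07). Smc1b, the meiotic cohesin subunit, had 7.84 and 7.72 in TKO EBs, against 4.28 and 4.68 in wt EBs (3.30 ± 0.26 SE, limma adjusted p = 3.56e-06). Both genes were well separated between the groups.

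Slc25a31 (log2 fold change 3.40), an ADP/ATP carrier of testis, Hsf2bp (3.44), a meiotic recombination factor, Mael (2.72), a factor of the piRNA pathway, Scml2 (3.27), a Polycomb-associated protein of the germ line, Ddx4 (2.97), an RNA helicase and the usual marker of germ cells, and Sycp3 (2.81) showed the same direction. All 3 defining germ cell markers (Dazl, Ddx4 and Sycp3) were called higher, with group means between 5.99 and 9.63 in TKO EBs and between 3.18 and 5.17 in wt EBs. Whether germ cells were present was not tested.

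On the X chromosome, families expressed in testis and placenta are known for silencing by DNA methylation in somatic cells, and 9 of the 18 measured were higher and none lower (limma; 11 higher and 1 lower at an unadjusted p under 0.05), with a median log2 fold change of 1.32. Usp26 had 8.82 and 9.41 in TKO EBs, against 4.59 and 4.94 in wt EBs (4.35 ± 0.31 SE, limma adjusted p = 2.13e-06). Efhc2 had 6.98 and 7.09 in TKO EBs, against 4.63 and 4.65 in wt EBs (2.39 ± 0.19 SE). Magea4, Magea5 and Magea6, cancer-testis antigen genes, were higher by 1.96, 2.20 and 1.89, and Rhox13, a reproductive homeobox gene, by 1.87. Members of one family can share probe sequence, so the values of Magea genes are not independent of each other.

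Xist showed 8.22 and 7.36 in TKO EBs, 9.27 and 9.38 in Dnmt1-/- EBs and 3.89 and 4.05 in wt EBs, with no overlap between the 3 genotypes. The TKO signal exceeded that of wt EBs by 3.82 ± 0.24 SE (limma adjusted p = 7.49e-07), and was below that of Dnmt1-/- EBs, at -1.54 ± 0.24 SE (limma adjusted p = 0.00698). At day 0 it was not called, with log2 signals of 4.58 and 4.50 in TKO ESCs, against 4.29 and 4.50 in wt ESCs.

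The stromal matrix list holds genes of fibroblast-like cells for matrix proteoglycans, matrix proteins and the enzymes that crosslink them, and 24 of 35 were lower in TKO EBs and none higher (limma; 29 lower and none higher at an unadjusted p under 0.05). Both TKO arrays were below both wt arrays for 30 of them. Lum had 3.54 and 3.72 in TKO EBs, against 9.93 and 10.13 in wt EBs (-6.39 ± 0.24 SE, limma adjusted p = 4.63e-08). Dcn had 5.42 and 4.74 in TKO EBs, against 11.54 and 11.81 in wt EBs (-6.60 ± 0.30 SE, limma adjusted p = 9.98e-08). For both genes the replicates of each genotype lay close together and the genotypes did not overlap.

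Postn, the matricellular protein periostin, was the gene of this group with the widest spread between TKO replicates, with 6.42 and 4.47 in TKO EBs, against 10.40 and 10.17 in wt EBs (-4.84 ± 0.48 SE, limma adjusted p = 2.56e-05). Bgn (-3.60), Lox (-3.59), the collagen and elastin crosslinking enzyme, and Tnc (-3.47) were lower too. In the collagen list, 13 of 24 were lower and none higher (limma; 18 lower and 1 higher at an unadjusted p under 0.05). Col3a1, a fibrillar collagen, had 6.5 and 6.43 in TKO EBs, against 11.18 and 11.61 in wt EBs (-4.93 ± 0.23 SE, limma adjusted p = 9.98e-08), and Col1a1 and Col1a2, the chains of type I collagen, were lower by 4.36 and 4.85. Of the stromal markers, 6 of 7 were called lower. Thy1 was the exception, with 6.28 and 6.57 in TKO EBs, against 6.81 and 6.72 in wt EBs (limma adjusted p = 0.112).

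Plasma proteins and coagulation factors are made by hepatocytes and, before the liver forms, by visceral endoderm. Of 31 plasma protein genes, 16 were lower and 2 higher, and all 16 lower calls but neither of the 2 higher calls held when each array was left out. Besides Alb, Ambp, the precursor of an alpha-1-microglobulin, had 5.43 and 5.27 in TKO EBs, against 9.47 and 10.23 in wt EBs (-4.50 ± 0.22 SE, limma adjusted p = 1.41e-07). Ahsg had 5.06 and 5.23 in TKO EBs, against 9.90 and 11.81 in wt EBs, with wt replicates that lay apart but were both above the TKO arrays (-5.71 ± 0.46 SE, limma adjusted p = 4.26e-06). Serpina6, the corticosteroid-binding globulin, was lower by 4.99 and Serpina1c by 3.75.

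Afp and Ttr, which visceral endoderm expresses early, had smaller differences. Afp had 10.95 and 10.92 in TKO EBs, against 12.72 and 12.48 in wt EBs (-1.66 ± 0.35 SE, limma adjusted p = 0.00664). Ttr had 11.20 and 10.28 in TKO EBs, against 12.27 and 12.26 in wt EBs, which was not called (limma adjusted p = 0.147). Hnf4a, a regulator of both cell types, had 7.48 and 6.83 in TKO EBs, against 8.02 and 7.69 in wt EBs (limma adjusted p = 0.112). Of the endoderm regulators, 5 of 21 were lower and none higher (limma; 13 lower and 1 higher at an unadjusted p under 0.05), among them Onecut1 (-2.04), Foxa1 (-1.66), Gata6 (-2.19) and Tcf21 (-3.48). Tcf21 is a gene of mesoderm, and it and Gata6 also belong to the list of cardiac and lateral mesoderm.

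Coagulation and fibrinolysis genes were lower for 14 of 27 and higher for none (limma; 19 lower and none higher at an unadjusted p under 0.05). Kng1, kininogen, had 4.85 and 5.04 in TKO EBs, against 8.85 and 10.12 in wt EBs (-4.54 ± 0.33 SE, limma adjusted p = 2.49e-06). Fgg and Fgb, chains of fibrinogen, were lower by 3.29 and 2.60, Serpind1, heparin cofactor II, by 3.05, and Serpinf2, alpha-2-antiplasmin, by 2.37. In the apolipoprotein and lipid transport list, 9 of 26 were lower and 1 higher, including Fabp1 (-3.05), the liver fatty acid-binding protein, Lpl (-2.61), lipoprotein lipase, and Apoh (-2.5). Without wt replicate 1 the lower count was 5.

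The macrophage and myeloid list had the lowest median of all 34 lists. Of 29 genes, 20 were lower and none higher (limma; 25 lower and none higher at an unadjusted p under 0.05), and both TKO arrays were below both wt arrays for 27. Lyz2, the lysozyme of macrophages, had 3.66 and 3.95 in TKO EBs, against 9.22 and 8.68 in wt EBs (-5.15 ± 0.26 SE, limma adjusted p = 1.89e-07). F13a1 (-4.63), the coagulation factor XIII A subunit that macrophages express, Ctss (-4.01), the protease cathepsin S, Mpeg1 (-3.77), Cd53 (-3.66) and C1qb (-3.26) were lower in the same way. The defining markers C1qa (-2.89), Csf1r (-2.03) and Ptprc (-1.34) were called lower, and Cd68 had 8.72 and 8.39 in TKO EBs, against 9.36 and 9.61 in wt EBs, a difference under 2-fold (limma adjusted p = 0.0354).

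Interferon and nucleic acid sensing genes were lower for 8 of 33 and higher for 1, but this count depended on single arrays, with 4 lower without TKO replicate 2 or without wt replicate 2 and 13 without wt replicate 1. Usp18 (-2.49) and Ifit1 (-2.19), with values of 4.60 and 4.47 in TKO EBs against 6.29 and 7.16 in wt EBs, are interferon-induced genes, and B2m, the light chain of class I MHC, was lower by 1.68.

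Cardiac sarcomere genes, which encode the contractile apparatus of cardiomyocytes, were lower for 13 of 30 and higher for none (limma; 21 lower and none higher at an unadjusted p under 0.05). Myh6, the alpha myosin heavy chain, had 5.37 and 6.07 in TKO EBs, against 8.31 and 8.78 in wt EBs (-2.83 ± 0.28 SE, limma adjusted p = 2.81e-05). Pln, phospholamban, was lower by 3.18, Actc1, cardiac actin, by 2.93, Tnnt2, a troponin, by 2.59, Myl7 by 2.55 and Myh7 by 2.36. Of the cardiomyocyte markers, 4 of 5 were lower, while Nkx2-5 was 7.01 and 7.42 in TKO EBs, against 7.23 and 7.38 in wt EBs.

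Among regulators of cardiac and lateral mesoderm, 11 of 30 were lower and none higher (limma; 19 lower and none higher at an unadjusted p under 0.05). Tcf21, which marks epicardium and mesothelium, and Nr2f2, a nuclear receptor of veins and mesenchyme, were lower by 3.48 and 3.36, Foxf1, a regulator of splanchnic mesoderm, by 2.31, and Mef2c by 1.49. The count was 5 without wt replicate 1. The smooth muscle list had 8 of 26 lower and none higher (limma; 16 lower and none higher at an unadjusted p under 0.05), with 3 lower without TKO replicate 2 and 4 without wt replicate 1, so that single arrays decided this count. Actg2, an enteric smooth muscle actin, was lower by 2.54 ± 0.22 SE (4.89 and 5.52 in TKO EBs, against 7.98 and 7.51 in wt EBs, limma adjusted p = 7.01e-06) and Axl, a receptor kinase, by 2.52. Of the 3 smooth muscle markers, 1 was called lower, Acta2 (-2.10, limma adjusted p = 0.0281). Acta2 had 9.96 and 8.69 in TKO EBs, against 11.53 and 11.33 in wt EBs. Its call depended on single arrays, and its log2 fold change ran between -2.74 and -1.47 when an array was left out. Cnn1 ran higher by 0.52 and was not called (limma adjusted p = 0.525).

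Imprinted genes are expressed from one parental allele, in most cases under control of differential methylation, and 12 of 39 were lower and 3 higher (median log2 fold change -0.43). The higher ones were Xist (3.82), Ascl2 (1.33) and Phlda2 (1.29), of which Phlda2 lost its call without TKO replicate 1 (limma adjusted p = 0.108) and without wt replicate 2 (limma adjusted p = 0.165). Dcn (-6.60), a stromal proteoglycan gene given above, is counted among the lower ones. Igf2, the paternally expressed growth factor, had 6.99 and 6.71 in TKO EBs, against 11.84 and 12.14 in wt EBs (-5.14 ± 0.31 SE, limma adjusted p = 7e-07). Dlk1, another paternally expressed gene, had 7.55 and 6.98 in TKO EBs, against 11.72 and 11.80 in wt EBs (-4.50 ± 0.20 SE, limma adjusted p = 9.98e-08). Zim1 (-3.94), Plagl1 (-3.63), Nnat (-2.47), Grb10 (-1.47) and Peg3 (-1.40) were lower as well, and Mest, with 11.68 and 11.11 in TKO EBs, against 12.29 and 11.56 in wt EBs, was not called (limma adjusted p = 0.29).

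Igfbp genes, whose products bind insulin-like growth factors, were lower for 4 of the 7 measured. Igfbp1 had 6.54 and 6.45 in TKO EBs, against 10.53 and 10.31 in wt EBs (-3.92 ± 0.26 SE, limma adjusted p = 1.47e-06). Igfbp5, Igfbp7 and Igfbp4 were lower by 4.12, 3.41 and 1.90, and the growth factor Igf1, the other ligand of the receptor, by 2.45. Over the list of insulin-like and fibroblast growth factor signals, 9 of 33 were lower and 2 higher.

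In other lists fewer genes were called. Hox cluster genes, which pattern the body axis, gave no call in either direction among 37 (limma; 1 higher and 8 lower at an unadjusted p under 0.05), and erythroid genes none among 17 (limma; none higher and 1 lower at an unadjusted p under 0.05). Hbb-bh1, the embryonic beta-type globin, had 6.66 and 4.84 in TKO EBs, against 8.78 and 4.2 in wt EBs, with replicates that differed more than the genotypes. Its log2 fold change was -0.74 and turned to 0.16 without TKO replicate 2 and to 1.55 without wt replicate 1. Two-cell-like genes mark a rare state of ESCs, and only 9 of the 23 listed were measured. These 9 also gave no call in limma, with 2 higher and none lower at an unadjusted p under 0.05.

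Endothelium had 4 of 35 lower, with 2 lower without TKO replicate 1 or without wt replicate 1, and its markers Pecam1, Cdh5, Kdr and Tek were not called, with Pecam1 at 8.41 and 8.65 in TKO EBs, against 8.43 and 7.46 in wt EBs. Neural progenitors had 4 of 37 higher and 3 lower, the higher ones including Sox2, Otx2 and Zic5 (2.51), which ESCs or the epiblast also express, and Ncam1, a neural cell adhesion molecule, was lower by 1.84. The 4 markers of neural progenitors, Nes, Sox1, Pax6 and Fabp7, were not called in either direction. Hes6 (0.27, limma adjusted p = 0.525) and Fzd3 (-0.67, limma adjusted p = 0.0527) were not called. Among 32 neuronal genes, 4 were higher and 3 lower, with between 0 and 3 lower when one array was left out. Stmn2, a growth cone protein, had 8.77 and 8.73 in TKO EBs, against 6.94 and 6.10 in wt EBs (2.23 ± 0.27 SE, limma adjusted p = 0.000144), while Tubb3 and Dcx were not called. Trophoblast genes were higher for 2 and lower for 5 of 27, counts that ran between 1 and 3 higher and between 2 and 6 lower when one array was left out. Ascl2, needed in spongiotrophoblast and imprinted, was higher by 1.33, and Tpbpa, a spongiotrophoblast marker, had 5.12 and 5.13 in TKO EBs, against 6.98 and 9.38 in wt EBs. Tpbpa was the 1 called of 3 measured trophoblast markers, and the others ran higher in TKO EBs. Elf5 had 5.86 and 5.78, against 5.59 and 5.67 in wt EBs (limma adjusted p = 0.613). Gata3 had 8.17 and 7.90, against 7.24 and 7.60 in wt EBs (limma adjusted p = 0.158).

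The list of simple epithelium and junctions had 5 of 30 lower and none higher (limma; 8 lower and none higher at an unadjusted p under 0.05). Cdh11, a cadherin of mesenchyme rather than of epithelium, had 6.77 and 6.15 in TKO EBs, against 10.76 and 10.51 in wt EBs (-4.18 ± 0.27 SE, limma adjusted p = 1.1e-06). Muc1, a mucin of the apical membrane (-2.78), and Krt5, a keratin of stratified epithelium (-2.47), were lower as well, as was the cadherin gene Cdh6 (-1.52).

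In the Wnt pathway, 7 of 42 genes were lower and 1 higher, with 4 lower without TKO replicate 2. The secreted inhibitors Dkk2 (-2.79), Dkk3 (-2.08) and Sfrp1 (-2.78) and the receptor Fzd1 (-2.0) were lower, and Sfrp4, another secreted inhibitor, was higher by 1.84. Of 42 genes of TGF-beta, BMP and Nodal signalling, 10 were lower and 5 higher. Here the members higher were ligands and inhibitors of the Nodal branch that ESCs express, Nodal, Lefty2 and Gdf3 (2.77) among them, and the members lower included the ligand Tgfb3 (-2.41), its target Tgfbi (-2.58) and the secreted Fstl1 (-2.66).

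Polycomb genes were higher for 6 of 28 and lower for none (limma; 12 higher and 2 lower at an unadjusted p under 0.05), with Phc1 (1.84), Cbx7 (1.5) and L3mbtl2 (1.53), which code for subunits of complexes that silence chromatin. Cell cycle genes were higher for 6 of 42 and lower for 2, with 12 higher without wt replicate 1 and 3 without wt replicate 2. Mybl2, a transcription factor of proliferating cells, had 9.94 and 10.003 in TKO EBs, against 7.54 and 7.30 in wt EBs (2.55 ± 0.22 SE, limma adjusted p = 7.42e-06). Ccne1, a cyclin of the G1 to S transition, was higher by 1.44, and Ccnd2, a D-type cyclin, was lower by 2.60. Hypoxia and glycolysis genes were lower for 4 of 27 and higher for none (limma; 7 lower and 1 higher at an unadjusted p under 0.05), and each single array left out reduced that count to 1. Among p53 targets 1 was higher and 2 lower of 22, with between 0 and 3 lower when one array was left out.

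Genes of retinoid metabolism were set side by side after their values were seen. Aldh1a1 (-2.97), Aldh1a2 (-2.04) and Aldh1a7 (-4.32), aldehyde dehydrogenases of which the first pair make retinoic acid, Rarb, a retinoic acid receptor and known retinoic acid target (-3.20), Dhrs3 (-2.70) and Adh1 (-2.79) were all lower. Rarb had 4.92 and 4.53 in TKO EBs, against 7.97 and 7.89 in wt EBs (limma adjusted p = 8.84e-07), and Aldh1a3 was not called (limma adjusted p = 0.305).

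miRNAs are short RNAs that repress messenger RNAs through pairing of their seed. The array measured 296 probe sets at miRNA hairpin genes, which do not report mature miRNA. Of these, 6 were lower and none higher (limma; 21 lower and 12 higher at an unadjusted p under 0.05). The share lower, 2.03%, was below the 5.07% of all genes. Of the 63 hairpins in the list of miRNAs, 3 were lower. Mature sequences of 3 of the 6 are given to identify them, with bases 2 to 8, the seed, in capitals (RefSeq, GRCm38.p6), and the 3 differ in their seed.
mmu-miR-181b-5p: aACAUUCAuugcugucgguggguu
mmu-miR-99a-5p: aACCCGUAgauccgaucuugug
mmu-miR-218-5p: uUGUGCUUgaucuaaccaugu

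Mir181b-1 had 3.31 and 3.20 in TKO EBs, against 5.998 and 5.40 in wt EBs (-2.45 ± 0.20 SE, limma adjusted p = 5.97e-06). Mir99a had 3.22 and 3.50 in TKO EBs, against 4.77 and 4.56 in wt EBs (-1.31 ± 0.13 SE, limma adjusted p = 2.58e-05), and its neighbour Mirlet7c-1 was lower by 1.01. Mir145a had 4.73 and 4.44 in TKO EBs, against 6.09 and 6.16 in wt EBs (-1.54 ± 0.19 SE, limma adjusted p = 0.000167). Mir218-1 had 4.47 and 4.68 in TKO EBs, against 5.59 and 5.81 in wt EBs (-1.13 ± 0.22 SE, limma adjusted p = 0.00484). For these genes the genotypes did not overlap. The call of Mirlet7c-1 was lost without TKO replicate 2 (-0.96) and without wt replicate 2 (-0.99), and that of Mir136 (-1.21) without TKO replicate 2 (-0.93). The cluster Mir302a to Mir302d and Mir367, typical of ESCs and epiblast, had values that ran higher in TKO EBs (1.5 to 2.27) but varied so much between replicates that none was called (limma adjusted p between 0.17 and 0.44).

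The same comparison was made at earlier days, on arrays that share none with day 16. At day 0, 63 genes were called (0.316%), 39 higher (0.196%) and 24 lower (0.12%), and at day 4, 719 (3.61%), 493 higher (2.47%) and 226 lower (1.13%). Of the 537 genes higher at day 16, 28 were higher at day 0, which was 71.8% of the 39, and 215 at day 4, 43.6% of the 493. Of the 1011 genes lower at day 16, 6 were lower at day 0, 25.0% of the 24, and 86 at day 4, 38.1% of the 226. No gene was called in opposite directions at day 0 and day 16, and 21 were at day 4 and day 16, of which 20 were higher in TKO at day 4 and lower at day 16.

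**Figure D3:**
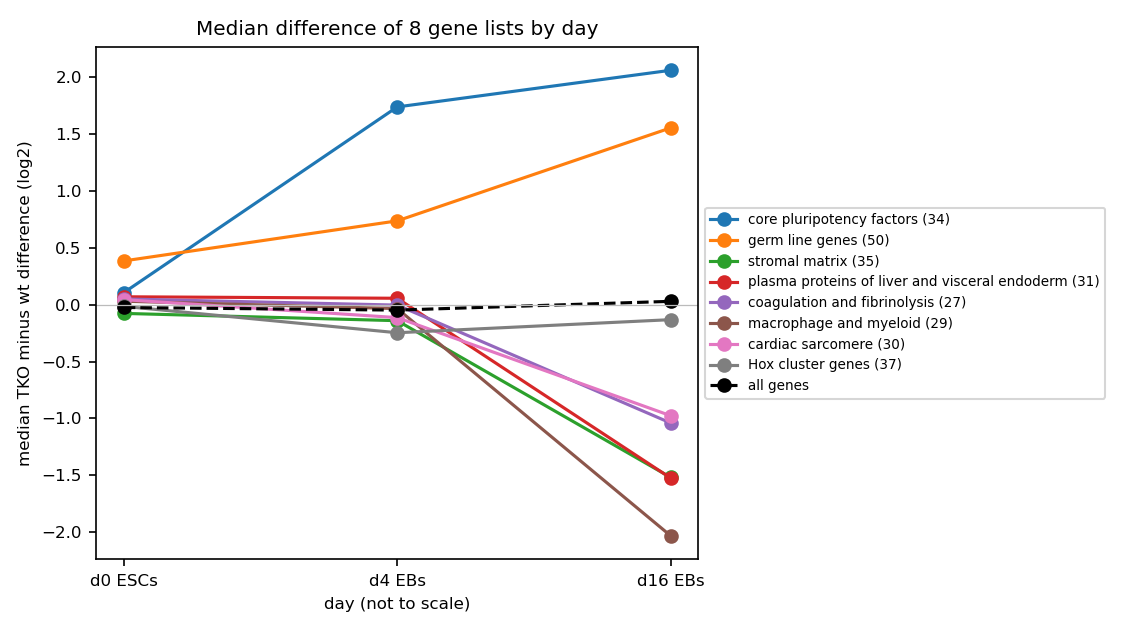
The median log2 fold change of TKO over wt samples in 8 gene lists and in all genes at days 0, 4 and 16. The germ line median is 0.38 at day 0, 0.74 at day 4 and 1.55 at day 16, the pluripotency median is 0.11, 1.74 and 2.06, and the macrophage median is 0.03 and -0.04 before -2.03 at day 16.

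Among germ line genes, 10 were higher at day 0 and 24 at day 4, whereas of the pluripotency genes none was higher at day 0 (limma; 2 at an unadjusted p under 0.05) and 22 were at day 4. Dazl had log2 signals of 8.09 and 7.76 in TKO ESCs, against 5.83 and 5.25 in wt ESCs. At day 4 its signals were 6.81 and 7.32 in TKO EBs, against 4.18 and 4.46 in wt EBs, so the genotypes were apart at both days. Pou5f1 had 11.64 and 11.45 in TKO ESCs, against 11.57 and 11.35 in wt ESCs, and was not called, whereas at day 4 it was higher (11.42 and 11.31 in TKO EBs, against 8.52 and 9.13 in wt EBs, limma adjusted p = 0.00284). Stromal, macrophage, sarcomere and coagulation genes had no call at day 0 (limma; at an unadjusted p under 0.05, 3 stromal genes and 1 sarcomere gene were lower, and 2 macrophage, 1 sarcomere and 2 coagulation genes higher). At day 4 there were 4 lower stromal genes, 1 lower sarcomere gene and no call among macrophage and coagulation genes (limma; at an unadjusted p under 0.05, 2 macrophage genes and 1 coagulation gene were higher and 1 coagulation gene lower).

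**Figure D4:**
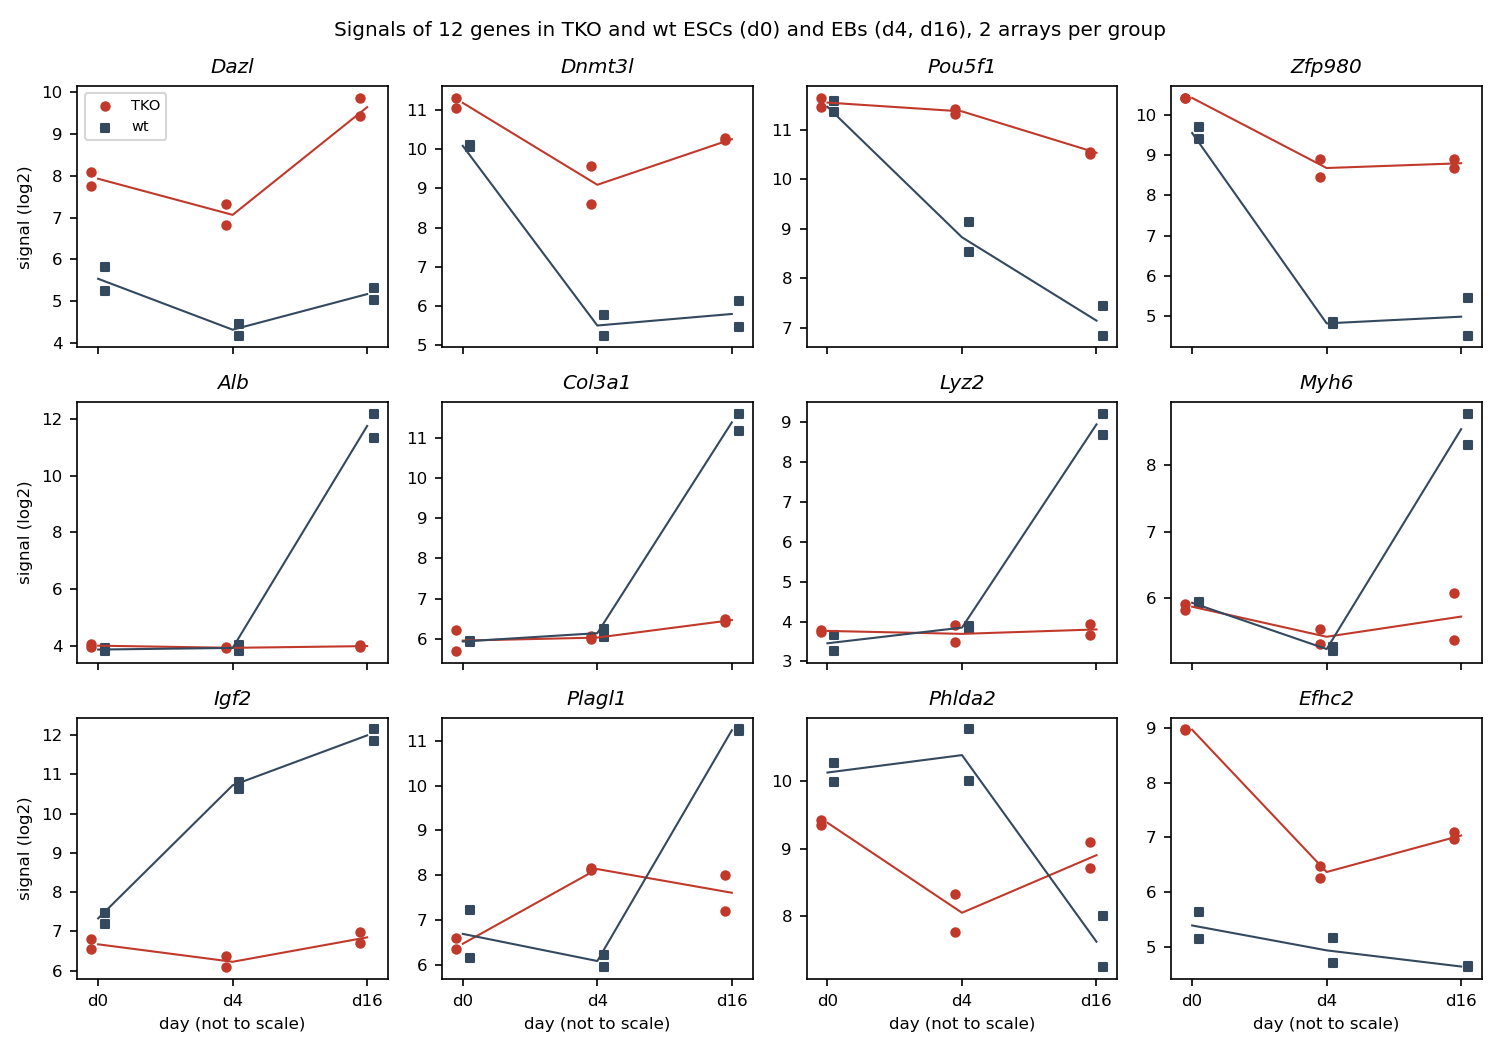
Log2 signals of 12 genes at days 0, 4 and 16 in TKO and wt samples, with one point for each of 2 arrays per group and lines through the means. Alb, Col3a1 and Lyz2 stay near their day 0 level in TKO EBs at day 16 while wt EBs are high, and Efhc2 is separated between the genotypes at every day.

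Whether a difference at day 16 was itself larger or smaller than that at day 0 was tested as a change of differences. It was called for 1046 genes (5.25%), with 375 shifted up (1.88%) and 671 shifted down (3.37%). Shifted up were 23 of 34 pluripotency genes and 15 of 50 germ line genes, and shifted down were 21 of 35 stromal, 19 of 29 macrophage, 15 of 31 plasma protein, 12 of 27 coagulation and 12 of 30 sarcomere genes. Between day 4 and day 16 the change was called for 848 genes (4.25%), 164 up (0.823%) and 684 down (3.43%), with 6 pluripotency and 7 germ line genes up. In probe sets, the changes from day 0 numbered 1388 (3.91%, with 1.69% up and 2.22% down), or 903 without TKO replicate 2 of day 0, and those from day 4 numbered 1028 (2.89%, with 0.659% up and 2.24% down), or between 612 and 682 without TKO replicate 1 or 2 of day 4, wt replicate 1 of day 4 or TKO replicate 2 of day 16.

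For Alb, which had been at 4.05 and 3.95 in TKO ESCs against 3.80 and 3.93 in ESCs of the wt line, the change from day 0 was -7.91 ± 0.50 SE (limma adjusted p = 8.3e-06). Dazl was already higher at day 0, and its difference was larger at day 16 by 2.08 ± 0.43 SE (limma adjusted p = 0.0155). For Efhc2 the difference was smaller by 1.18 at day 16 than at day 0 (limma adjusted p = 0.0233), when it had 8.97 and 8.96 in TKO ESCs, against 5.15 and 5.63 in wt ESCs. Igf2 was low at day 4 already, with 6.09 and 6.37 in TKO EBs, against 10.81 and 10.64 in wt EBs, and the change of its difference between day 4 and day 16 was not called (-0.65 ± 0.45 SE, limma adjusted p = 0.594).

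Dnmt1-/- EBs of day 16 are the group closest to TKO EBs by genotype, as they retain Dnmt3a and Dnmt3b. TKO EBs differed from them for 324 genes (1.63%), 33 higher (0.166%) and 291 lower (1.46%). Each of these genes is compared on arrays that also enter the comparison with wt EBs. Counted as probe sets, 380 were called (1.07%, with 0.13% higher and 0.941% lower), 105 without TKO replicate 2, 101 without Dnmt1-/- replicate 1 and 1 in a fit of only the 4 arrays compared, so that these calls rest on few arrays and on the spread pooled over all groups. Dnmt1-/- EBs themselves differed from wt EBs for 726 genes (3.64%), 297 higher (1.49%) and 429 lower (2.15%).

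**Figure D5:**
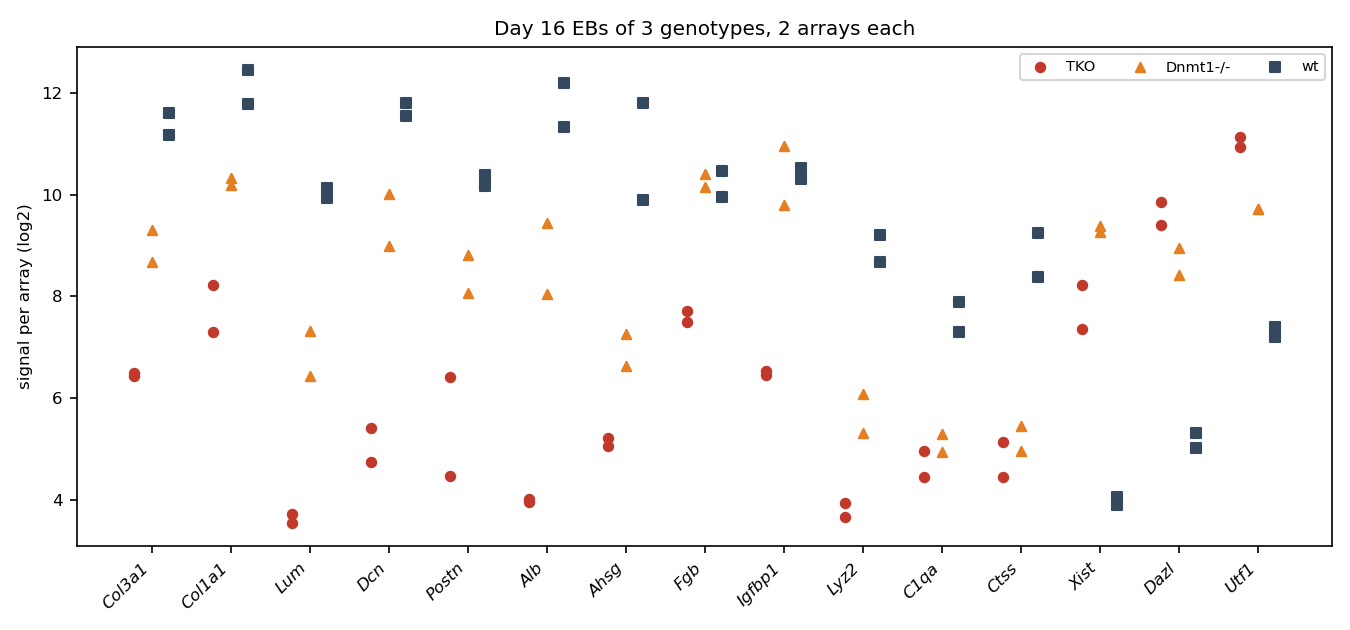
Log2 signals of 15 genes in TKO, Dnmt1-/- and wt EBs of day 16, with one point for each of 2 arrays per genotype. Stromal and plasma protein genes of Dnmt1-/- EBs mostly lie between TKO and wt values, Igfbp1 and Fgb overlap with wt, and the macrophage genes C1qa and Ctss lie near the TKO values.

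Stromal genes were lower in TKO than in Dnmt1-/- EBs for 14 of 35, collagens for 9 of 24, plasma proteins for 11 of 31, coagulation genes for 11 of 27, sarcomere genes for 10 of 30 and imprinted genes for 9 of 39. Lum had 3.54 and 3.72 in TKO EBs, 7.31 and 6.44 in Dnmt1-/- EBs and 9.93 and 10.13 in wt EBs, so each genotype was apart from the next (TKO minus Dnmt1-/- -3.24 ± 0.24 SE, limma adjusted p = 6.89e-05). Igfbp1 had 6.54 and 6.45 in TKO EBs, 10.95 and 9.81 in Dnmt1-/- EBs and 10.53 and 10.31 in wt EBs, where the Dnmt1-/- and wt values overlapped (TKO minus Dnmt1-/- -3.88, limma adjusted p = 3.22e-05). Pdgfra, a receptor of mesenchymal cells, had 8.15 and 7.5 in TKO EBs, 10.40 and 10.39 in Dnmt1-/- EBs and 9.73 and 10.07 in wt EBs.

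Macrophage genes were called lower in TKO than in Dnmt1-/- EBs for 3 of 29, and C1qa had 4.45 and 4.96 in TKO EBs, 4.94 and 5.30 in Dnmt1-/- EBs and 7.31 and 7.88 in wt EBs. Pluripotency genes were higher in TKO than in Dnmt1-/- EBs for 6 of 34, Esrrb by 1.78 among them (limma adjusted p = 0.0363). No germ line gene was called in either direction (limma; 12 higher and 1 lower at an unadjusted p under 0.05). Dazl had 9.86 and 9.41 in TKO EBs, against 8.95 and 8.43 in Dnmt1-/- EBs (log2 fold change 0.95, limma adjusted p = 0.167).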

How the data were processed

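Total RNA of ESCs and EBs was hybridised to Affymetrix Mouse Gene 1.0 ST arrays. The authors deposited RMA values, background-corrected and normalized log2 signals with one value per probe set and array. For the RMA version, the annotation and any filter, details were not given in the sources used here. Values were used as deposited, and no count or sequencing depth exists for arrays, whose number limits the precision. The 35512 probe sets were named from the platform annotation: 21789 had 1 gene symbol, 1621 several and 12102 none here. A gene was represented by the probe set with the highest mean over all 18 arrays. limma 3.58.1 in R 4.3.3 was fitted to the 9 group means of 18 arrays (9 residual and 3.32 prior degrees of freedom) with eBayes, and a call needed a log2 fold change of at least 1 in size and a Benjamini-Hochberg false discovery rate under 0.05 over all 35512 probe sets. The other contrasts, between days and with Dnmt1-/- EBs, came from the same fit, which was tested on simulated data first. The members and lists were chosen with earlier results of these data known. Genes named in the text come from the 15 with the largest rise and fall whose calls held without each array and from up to 6 called genes per list, with related genes beside them. Genes of the study and cell type markers were set whatever their values, but not all of them are printed. Retinoid, zinc finger, miRNA hairpin and other families were added after their values were seen. All 34 lists are given. Replicate numbers were not stated in the labels to mark shared experiments, so they did not pair arrays in the main fit. Alternatives were other scalings, centring, variance models, a filter on dim probe sets, fits of only the arrays compared, a replicate block and leaving out each array. Promoter and mature miRNA sequences are from RefSeq (GRCm38.p6). T, H19 and Prl3d1 were not analysed here.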

Additional observations from a re-analysis of the deposited data

Results flagged for a closer look

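Across days the test of a change in the TKO minus wt difference itself was passed by 1388 probe sets between day 0 and day 16 and by 1028 between day 4 and day 16 (limma). These are changes between days in the TKO minus wt difference, in which genotype and line cannot be told apart. Each day 16 array enters both counts.

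At day 4 and day 16, 21 genes were called in opposite directions, and some that are named elsewhere in the text are given here. Dhrs3 is among the genes that were added after their values were seen. Plagl1, an imprinted zinc finger gene, had log2 signals of 8.11 and 8.16 in TKO EBs of day 4, against 6.22 and 5.94 in wt EBs, and 8.01 and 7.20 in TKO EBs of day 16, against 11.22 and 11.26 in wt EBs, a change of -5.69 (limma adjusted p = 2.28e-05). Dhrs3, which acts on retinal, changed by -3.88, with a TKO minus wt difference of 1.18 at day 4 and of -2.70 at day 16 (limma adjusted p = 0.000227). Afp changed by -3.04, with 5.79 and 7.25 in TKO EBs of day 4, against 4.99 and 5.31 in wt EBs (limma adjusted p = 0.00461). Phlda2, a maternally expressed imprinted gene, ran the other way, with 7.76 and 8.33 in TKO EBs, against 10.01 and 10.77 in wt EBs at day 4, and 9.09 and 8.71 in TKO EBs, against 7.99 and 7.23 in wt EBs at day 16, a change of 3.64 (limma adjusted p = 0.000668). Its call at day 16 was lost without TKO replicate 1 (limma adjusted p = 0.108) and without wt replicate 2 (limma adjusted p = 0.165).

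A set of 50 probe sets with no gene symbol here carried identical values on all 18 arrays and was outside the gene comparison. Each of the 50 is counted among the probe sets called higher at day 16. Their shared log2 signal was 11.50 and 11.18 in TKO EBs, 10.94 and 11.61 in Dnmt1-/- EBs and 5.52 and 5.55 in wt EBs of day 16, a log2 fold change of 5.80 between TKO and wt EBs (limma adjusted p = 2.57e-06). At day 4 the difference was 5.10, and at day 0 it was 1.94 (6.77 and 6.38 in TKO ESCs, against 4.78 and 4.49 in wt ESCs, limma adjusted p = 0.0833).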

How the results depend on the processing

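Of the 254 genes named, none of the 215 called at day 16 changed direction under the alternatives run, and 8 of the 39 not called did. Dcx (0.01) gave -0.0194 after quantile normalization and -0.0397 after centring, and Tubb3 (0.04) gave -0.0032 after centring. When one array of day 16 was left out, the log2 fold change ran between -0.24 and 0.48 for Alas2, between -0.17 and 0.19 for Dcx, between -2.20 and 1.61 for Hba-x, between -3.03 and 1.55 for Hbb-bh1, between -0.67 and 0.23 for Kdr, between -0.30 and 0.12 for Nkx2-5, between -0.30 and 0.39 for Tubb3 and between -0.51 and 0.0132 for Zfp933. Under each rescaling, the centring, the other variance model and the fit with one row per distinct set of values, all 254 kept their side of the threshold. The main dependence was on the samples in the fit: with only the arrays compared, 43 of these genes lost their call and 1 gained one, and 1341 probe sets were called at day 16 (748 lower). Under that setting the change from day 0 was called for 825 (380 up and 445 down), that from day 4 for 475 (81 up and 394 down) and TKO minus Dnmt1-/- EBs for 1 (0 higher and 1 lower). Fewer residual degrees of freedom remain in such fits. With 1 probe set per gene, 551 were higher at day 16. Of the 35512 probe sets 701 shared all values with another, and the fit with one row per distinct set was added after seeing the data. In that fit the change from day 0 was called up for 516 rows, against 599 in the main fit. Leaving out one array gave between 1807 and 2190 probe sets called at day 16 (760 to 1005 higher and 993 to 1380 lower). The change from day 0 ranged from 903 to 1512 (371 to 719 up and 520 to 793 down), that from day 4 from 612 to 1085 (103 to 324 up and 502 to 764 down), and TKO minus Dnmt1-/- EBs from 101 to 407 (5 to 46 higher and 94 to 361 lower). Of the named genes, between 14 and 27 lost their call when one array of day 16 was left out.

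The methods speak of independent experiments, but no source ties a replicate number to one of them. Deviations of same-numbered TKO and wt arrays of day 16 correlated at 0.45. Over the 36 pairs of groups the correlation had a median of 0.273 and a lowest value of 0.0409, with 32 over 0.1. Same-numbered arrays thus tended to deviate together, and whether they share an experiment was not tested. The main fit left this possible pairing out because no source states it. With the replicate number as a block, the change from day 4 was called up for 354 probe sets and TKO minus Dnmt1-/- higher for 74, and the other counts kept within 1.5 times of the main ones. Detection above background was not analysed here, so the folds of genes with low signals in TKO EBs, such as Alb and Lum, carry no bound.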

Other observations

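Genes of the Zfp family on chromosome 4 were set side by side after their values were seen. Zinc finger proteins with KRAB domains are known repressors of transposons. Of the 17 measured on the chromosome, 6 were higher and 2 lower in TKO EBs, against 17 higher and 10 lower of all 350 Zfp genes. The 6 higher genes, Zfp980, Zfp600, Zfp991, Zfp982, Zfp985 and Zfp979, were the measured Zfp genes between 145.7 and 147.6 Mb (GRCm38.p6), with log2 fold changes between 1.82 and 3.81. Genes with other symbols in this stretch were not examined. Against wt EBs, the same 6 genes also ran higher in Dnmt1-/- EBs of day 16 (1.29 to 3.14) and in TKO EBs of day 4 (1.28 to 3.86). Zfp980 had 8.69 and 8.91 in TKO EBs, against 5.46 and 4.52 in wt EBs (3.81 ± 0.39 SE, limma adjusted p = 3.14e-05). The next measured Zfp gene, Zfp933 at 147.8 Mb, had 6.01 and 5.48 in TKO EBs, against 6.07 and 5.93 in wt EBs and was not called (limma adjusted p = 0.421). Genes of one cluster share sequence, so their probe sets may not be independent.

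On the X chromosome, 7.41% of 742 genes were higher and 8.09% lower, against 2.69% and 5.07% of all genes. All 4 called of the 9 Y chromosome genes were higher in TKO EBs, among them Uba1y by 1.81, Zfy1 by 2.52 and Usp9y by 1.40. Other families, again chosen after their values were seen, were lower for part of their members: 12 of 34 Pcdh genes, 11 of 87 Cyp genes, 3 of 7 Sema3 genes (Sema3c by 4.12, a guidance signal of the cardiac outflow tract) and 2 of 3 Meis genes (Meis1 by 2.87 and Meis2 by 2.88). Among 19 Prl genes, placental relatives of prolactin, Prl5a1, Prl7a1 and Prl4a1 were higher by 2.36, 2.17 and 1.76, and 2 were lower. Log2 fold changes in this family ran from -2.825 to 2.359, with a median of -0.069. Another 6 probe sets with no gene symbol here had the same values on all arrays, 9.72 and 9.95 in TKO EBs, against 6.16 and 6.08 in wt EBs (limma log2 fold change 3.71).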
